A study of Homo sapiens with 7 samples.

Results

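A set of 10 receptors of cytokines and growth factors that act on myeloid cells were followed in the human monocytic leukemia line U937: CSF1R, CSF2RA, CSF2RB, CSF3R, IL3RA, FLT3, KIT, IL6R, IFNGR1 and TNFRSF1A. They were taken by gene symbol, 10 of the 26364 symbols counted. RNA sequencing covered 7 libraries in 3 groups, all from cells in 0.1 mM ZnSO4. MT_mock was the parental line U937 MT (n = 3), B412_mock was U937 B412, a derivative that expresses the fusion protein PLZF/RARA when zinc is added (n = 2), and B412_GSK126 was U937 B412 given 2.5 µM GSK126 as well, an inhibitor of the histone H3 lysine 27 methyltransferase EZH2 (n = 2). The labels give a 24 h zinc pretreatment for both B412 groups and 96 h with GSK126 and zinc for B412_GSK126. No zinc time is recorded for MT_mock, no time after the pretreatment for B412_mock, and no vehicle for the mock groups. If zinc times differed between groups, this cannot be told apart from the line or from GSK126. Whether B412 is 1 clone, and whether replicates were separate cultures, is not given in the sources used here, so the p-values reflect library spread alone, which may be technical. In bulk RNA, fewer cells with a transcript and less transcript per cell cannot be told apart.

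Library totals lay between 12736244 and 14848130 counts, so 3 counts, the limit that a count of 0 allows, corresponded to 0.202 to 0.236 CPM, the reads of a gene scaled to a library total of 1000000. ZBTB16, the gene of PLZF, was counted 4, 0 and 0 times in MT_mock, against 22 and 28 in B412_mock and 7 and 36 with GSK126. RARA stood at 19.1, 18.1 and 35 CPM in MT_mock, 16.3 and 39.5 CPM in B412_mock and 22.9 and 50.5 CPM with GSK126. Counts per gene do not separate the fusion transcript from those of its partner genes. Markers of monocytic and granulocytic cells summed to 1180 to 8600 CPM with 12 to 14 of 14 genes at 3 counts or more, although CD14 had counts only in B412_mock replicate 1 (4) and B412_GSK126 replicate 1 (7). T cell markers summed to at most 0.293 CPM and B cell markers to 13.1 to 49.6 CPM. The libraries fell into 2 sets that the labels do not give and that crossed the groups, separated by a first principal component with 65.7% of the variance. Set 2 was made of MT_mock replicate 3 with the second replicates of B412_mock and of B412_GSK126. Set 1 held the other 4 libraries. By edgeR with adjustment over all genes, 61.5% of the 13521 genes tested differed between the sets. The sets were drawn from these same counts, so this share is a description and not a test. P-values with the set term also depend on that split. Differences of the tested receptors are given by group means alone and with the set as an additional term. For other genes the log2 values are with the set term unless stated.

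The 10 proteins belong to a few structural families. CSF1R, KIT and FLT3 are receptor tyrosine kinases of class III, which dimerise on binding CSF1, stem cell factor and FLT3 ligand. CSF2RA and IL3RA are the ligand-binding alpha chains for GM-CSF and interleukin 3, and both signal through the common beta chain CSF2RB. CSF3R is the G-CSF receptor of neutrophil precursors, IL6R binds interleukin 6 and signals through the chain gp130 (IL6ST), IFNGR1 is the ligand-binding chain for interferon gamma, and TNFRSF1A is a death-domain receptor for tumour necrosis factor. Receptors of the cytokine and interferon families work through JAK kinases and STAT factors.

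Promoter sequences are shown for 3 of the receptors: CSF3R, with the largest difference from MT_mock among those tested, CSF1R, the receptor of mature monocytes with almost no reads here, and CSF2RA, whose sequence lies on both sex chromosomes. Each is the RefSeq window (build GRCh38.p14) from 250 bases before to 50 bases after an annotated start, 5′ to 3′ on the gene's strand, at chr1:36483265-36483564 (minus strand) and chr1:36482864-36483163 (minus strand) for CSF3R, chr5:150086505-150086804 (minus strand) for CSF1R and chrX:1268564-1268863 (plus strand) for CSF2RA. Capitals mark matches, on either strand, to 5 short motifs of factors known in myeloid cells: GAGGAA (PU.1), TTGCNNAA (CEBP), TTCNNNGAA (STAT), AGGTCA (a single retinoic acid receptor half-site) and TGTGGT (RUNX).
CSF3R, first start: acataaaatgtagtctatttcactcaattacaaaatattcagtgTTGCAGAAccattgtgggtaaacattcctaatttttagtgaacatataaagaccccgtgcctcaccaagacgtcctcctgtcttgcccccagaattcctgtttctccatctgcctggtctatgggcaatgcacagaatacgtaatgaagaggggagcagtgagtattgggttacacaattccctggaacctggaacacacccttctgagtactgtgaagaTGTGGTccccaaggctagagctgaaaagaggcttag
CSF3R, second start: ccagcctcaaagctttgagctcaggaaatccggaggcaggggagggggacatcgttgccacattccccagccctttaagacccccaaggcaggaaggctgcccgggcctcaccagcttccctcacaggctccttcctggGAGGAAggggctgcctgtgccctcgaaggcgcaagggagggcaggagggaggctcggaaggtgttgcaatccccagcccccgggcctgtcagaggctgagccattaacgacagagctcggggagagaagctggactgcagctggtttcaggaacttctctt
CSF1R, second start: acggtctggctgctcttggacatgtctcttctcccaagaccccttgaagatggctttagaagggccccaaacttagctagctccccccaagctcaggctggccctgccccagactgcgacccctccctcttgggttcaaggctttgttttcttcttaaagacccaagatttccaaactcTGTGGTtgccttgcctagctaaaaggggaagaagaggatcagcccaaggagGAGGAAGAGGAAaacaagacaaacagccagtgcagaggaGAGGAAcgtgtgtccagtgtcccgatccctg
CSF2RA: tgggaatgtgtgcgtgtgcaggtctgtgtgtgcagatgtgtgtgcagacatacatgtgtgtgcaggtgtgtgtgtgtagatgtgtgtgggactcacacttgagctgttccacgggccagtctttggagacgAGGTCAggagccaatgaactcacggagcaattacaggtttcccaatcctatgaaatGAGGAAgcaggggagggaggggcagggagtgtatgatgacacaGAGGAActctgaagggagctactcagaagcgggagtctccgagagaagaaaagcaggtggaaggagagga
The first CSF3R window held 1 TTGCNNAA and 1 TGTGGT match, and the second held 1 GAGGAA match. The CSF1R window held 3 GAGGAA matches, of which the first 2 are adjacent, and 1 TGTGGT match, while the window of the first CSF1R start, at chr5:150113316-150113615, held 0 matches to the 5 motifs. The CSF2RA window held 2 GAGGAA matches and 1 AGGTCA match. Over all 34943 windows of that length, 27.9% held GAGGAA, 10.5% TTGCNNAA, 7.66% TTCNNNGAA, 13.8% AGGTCA and 13.1% TGTGGT, so such matches are common and are given as descriptions only. A window was found for 9 of the 10 receptors. Their promoters differed widely in CG dinucleotides, from 3 in the first CSF3R window and 4 in those of CSF1R (second start) and TNFRSF1A to 34 in FLT3 and 38 in KIT, against a median of 14 over all windows.

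The receptors split evenly by detection. CSF2RB, CSF3R, IL6R, IFNGR1 and TNFRSF1A passed the filter on low counts and were tested. CSF1R, KIT, FLT3, CSF2RA and IL3RA did not, with at most 10 counts in any library. Levels of different genes were set side by side per kilobase of exon (CPM per kb, from GENCODE 29 lengths). TNFRSF1A was highest, at 56.0 ± 12.9 CPM per kb (SD, n = 7 libraries), and stood above IFNGR1, at 25.4 ± 14.4, in 7 of 7 libraries. IFNGR1 exceeded CSF3R, at 13.6 ± 10.7, in 6 of 7 libraries. CSF3R and IL6R did not keep an order: IL6R was at 11.6 ± 2.67 CPM per kb and CSF3R exceeded it in only 3 of 7 libraries. The common beta chain CSF2RB followed at 2.75 ± 1.78 CPM per kb, below IL6R and above CSF1R in 7 of 7 libraries each. The other 5 had means of 0.0907 CPM per kb (CSF1R) and less, and no neighbours among them kept their order in all libraries.

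**Figure D1:**
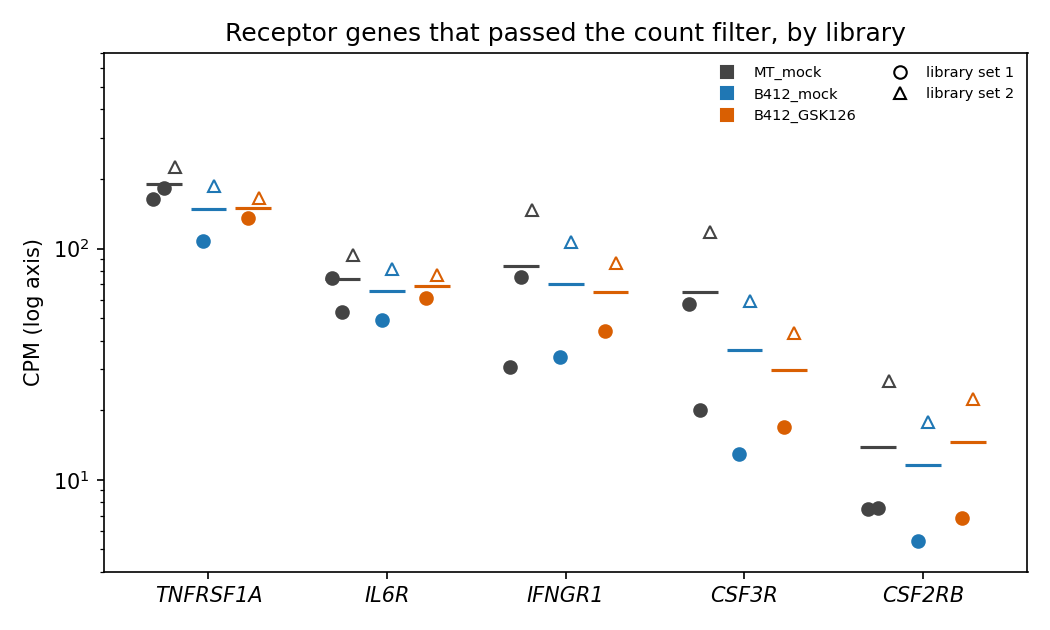
Level of the 5 tested receptors in each of the 7 libraries, in CPM on a log axis. Colours give the group, filled circles library set 1, open triangles set 2 and bars the group mean. For all 5 genes the highest library of each group is the one from set 2, and the groups overlap.

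The class III tyrosine kinase receptors were close to undetected. CSF1R, which carries the survival signal of monocytes and macrophages, gave 5, 7 and 2 reads in MT_mock, 2 and 6 in B412_mock and 4 and 9 in B412_GSK126. These counts were spread over all 3 groups, and the B412_mock to MT_mock ratio of summed counts per library total was 0.934 (95% exact counting interval 0.34 to 2.39). KIT, the stem cell factor receptor of progenitors and mast cells, gave 4, 10 and 4 reads in MT_mock, 0 and 3 in B412_mock and 0 and 3 in B412_GSK126. The 3 parental libraries thus held 18 of the 24 KIT reads, and the summed level in B412_mock was 3.67-fold lower than in MT_mock (counting interval 1.07 to 19.5). FLT3, a receptor of early progenitors and a frequent site of mutation in acute myeloid leukemia, had 0 counts in all 3 MT_mock libraries, 2 and 5 in B412_mock and 0 and 2 in B412_GSK126. Against the 3-count limit of each MT_mock library, the 7 FLT3 reads of B412_mock gave a ratio of 1.27. This ratio takes the 7 reads as exact, so it is not a lower bound. B412_mock replicate 1, with 2 reads, was itself under 3 counts. The intervals and the 3-count limit cover counting error only, and reads without molecular identifiers are not independent molecules. None of the 5 low receptors was called in any of the 3 comparisons when edgeR was run without the filter (adjusted p between 0.681 and 1).

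**Figure D2:**
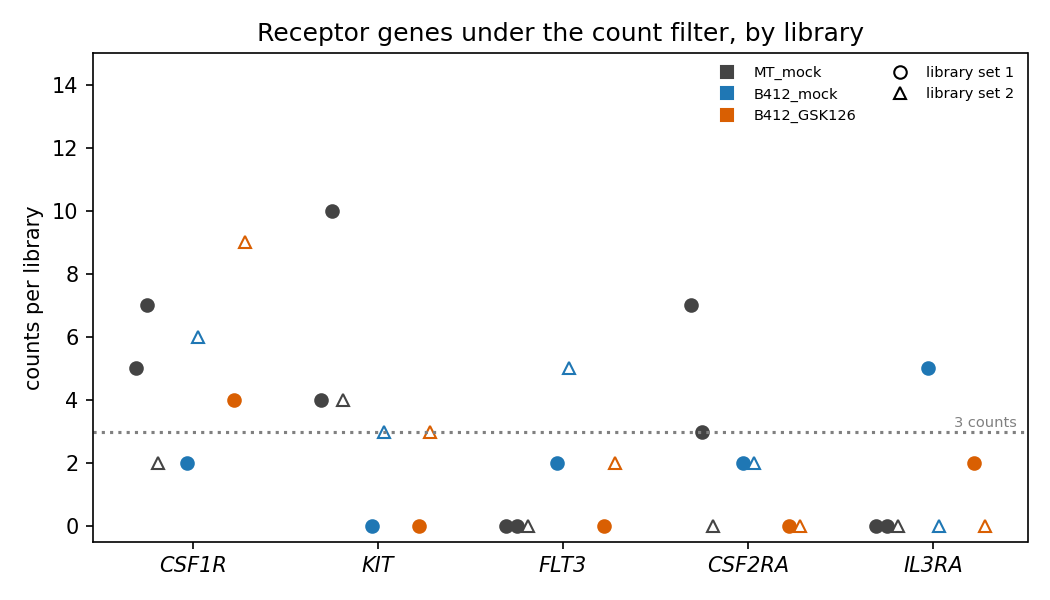
Read counts of the 5 receptors that did not pass the filter, in each of the 7 libraries, coloured by group, with circles for library set 1, triangles for set 2 and a dotted line at 3 counts. No value is above 10 counts, and KIT reads lie mainly in MT_mock while FLT3 and IL3RA are at 0 in all 3 MT_mock libraries.

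Both alpha chains that pair with CSF2RB were also near 0, but for these genes a low count is uncertain. CSF2RA gave 7, 3 and 0 reads in MT_mock, 2 and 2 in B412_mock and 0 and 0 in B412_GSK126. IL3RA had 0 counts in all MT_mock libraries, 5 and 0 in B412_mock and 2 and 0 in B412_GSK126. Both lie in the pseudoautosomal region, which is carried as identical copies on X and Y, and the RefSeq promoter windows of each matched between X and Y at 300 of 300 bases. Of 15 protein-coding genes of that region in the files, 4 (26.7%) passed the filter, against 62.1% of the 18545 other protein-coding genes. The 15 include CSF2RA and IL3RA themselves, and without them it was 4 of 13. SLC25A6, a mitochondrial ADP/ATP carrier of this region, stood at 1.41 to 7.13 CPM per kb, and its close relative SLC25A5, which is not copied on Y and was chosen after its values were seen, at 263 to 722 CPM per kb. CD99, a leukocyte surface protein from the same region, stood at 0.751 to 2.17 CPM per kb. How reads that match both copies were counted is not given in the sources used here, and its part in the low CSF2RA and IL3RA counts was not tested. The presence or absence of either alpha chain is therefore not read from these counts, whereas CSF2RB is not in that region.

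**Figure D3:**
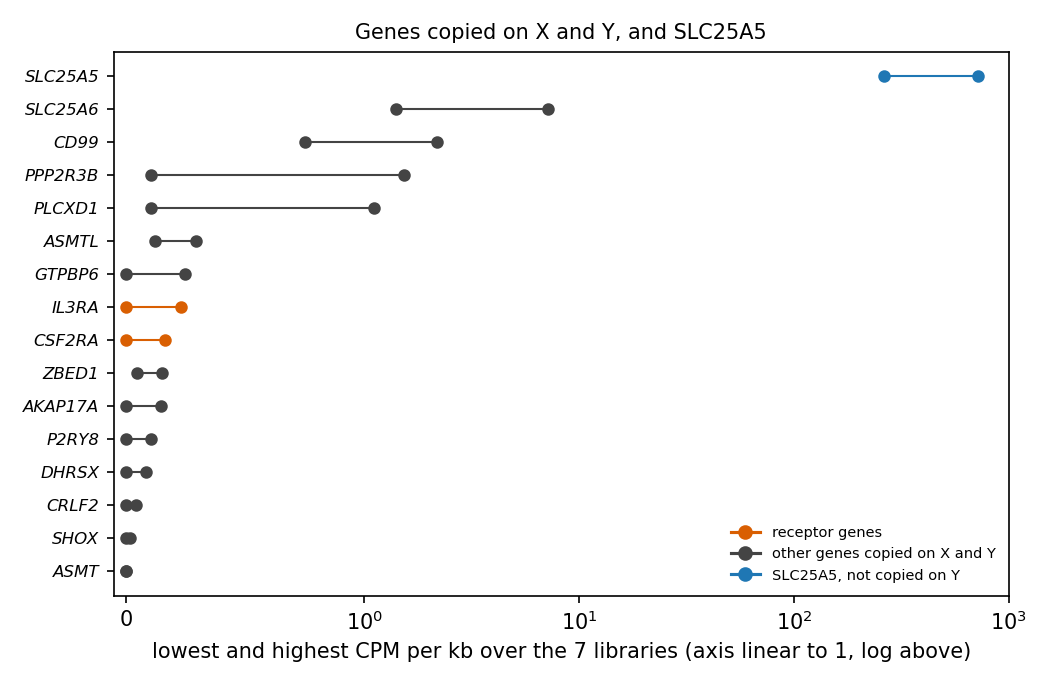
Lowest and highest level over the 7 libraries, in CPM per kb (axis linear to 1, log above), of the 15 protein-coding genes copied on X and Y and of SLC25A5. CSF2RA and IL3RA lie near 0 with most of the region's genes, the highest being SLC25A6 at up to 7.13, while SLC25A5 reaches 722.

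B412_mock was set against MT_mock to see how receptor levels stand in the line made to express PLZF/RARA. All 5 tested receptors were lower in B412_mock by group means and within each library set, and none passed the threshold. The direction of CSF2RB, IFNGR1 and IL6R was not stable: by group means the log2 turned to 0.48 for CSF2RB and 0.27 for IFNGR1 without MT_mock replicate 3, and to 0.23 (CSF2RB), 0.21 (IFNGR1) and 0.01 (IL6R) without B412_mock replicate 1. With the replicate number as a block it was 0.25 for CSF2RB and 0.24 for IFNGR1. CSF3R stood at 57.3, 20 and 118 CPM in MT_mock and at 12.9 and 59.6 CPM in B412_mock. Within set 1 both parental values (57.3 and 20) lay above the B412_mock value (12.9), and within set 2 the parental value (118) lay above 59.6, while across the sets the groups overlapped. The CSF3R difference was a log2 of -0.92 (SE 0.876, edgeR adjusted p = 1) by group means and -1.28 (SE 0.402, 95% interval -2.20 to -0.37, adjusted p = 0.171) with the set term. TNFRSF1A stood at 163, 183 and 226 CPM in MT_mock and at 108 and 187 CPM in B412_mock. Its set 1 value in B412_mock lay below both set 1 values of the parental line, and its set 2 value below that of MT_mock replicate 3. The TNFRSF1A difference was a log2 of -0.44 (SE 0.332, edgeR adjusted p = 1) by group means and -0.51 (SE 0.163, interval -0.86 to -0.15, adjusted p = 0.152) with the set term.

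The other 3 receptors differed by less relative to their errors. IFNGR1 stood at 30.8, 75.2 and 146 CPM in MT_mock and at 34.1 and 107 CPM in B412_mock. Here the set 1 value of B412_mock fell between the parental values. The log2 difference was -0.33 (SE 0.716) by group means and -0.55 (SE 0.340, edgeR adjusted p = 0.518) with the set term. CSF2RB stood at 7.48, 7.56 and 26.7 CPM in MT_mock and at 5.42 and 17.7 CPM in B412_mock. The B412_mock library was lower than the parental libraries of its own set in both sets. The CSF2RB log2 was -0.33 (SE 0.808) by group means and -0.55 (SE 0.262, edgeR adjusted p = 0.370) with the set term. IL6R stood at 74.3, 53.3 and 93.7 CPM in MT_mock and at 49.3 and 81.8 CPM in B412_mock. Its log2 was -0.23 (SE 0.356) by group means and -0.30 (SE 0.190, edgeR adjusted p = 0.527) with the set term.

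By edgeR, 0 of the 5 receptors were called in either fit, where 0% of the tested genes were called by group means and 2.35% with the set term. Before adjustment, the edgeR p was under 0.05 for 0 receptors by group means (2.54% of all tested genes) and for CSF3R and TNFRSF1A with the set term (14.6% of all tested genes). DESeq2 called 0 by group means, where 0.703% of the tested genes were called, and CSF3R alone with the set term (log2 -1.29, adjusted p = 0.0102), where 5.06% were. All 5 were lower within both sets, which was so for 32% of the tested genes, and the median log2 of the 5 was -0.33 by group means and -0.55 with the set term, against -0.01 over all genes in both fits. In 0 of the 5 did the groups not overlap, against 11.1% of the tested genes. Without the filter on low counts, edgeR with the set term also called CSF3R (log2 -1.29, adjusted p = 1.91e-06), where 881 of 18734 genes were called. The log2 was close to the -1.28 of the filtered fit, so the lower p came with the setting and not with a larger difference. With the set term and MT_mock replicate 2 left out, edgeR called CSF3R (log2 -1.55, adjusted p = 0.0354), where 161 of 13354 genes were called. With MT_mock replicate 1 left out instead, it called IFNGR1 (log2 -0.80, adjusted p = 0.0448), where 587 of 13351 were. Monocytic and granulocytic markers summed to 2680 to 8600 CPM in MT_mock and to 1180 and 3110 CPM in B412_mock, and B cell markers to 24.9 to 49.6 and to 13.9 and 23.6 CPM. In MT_mock the first sum is mostly MPO, at 1420 to 6020 CPM, while MPO stood at 472 and 1770 CPM in B412_mock. With the set term edgeR called 3 of the 13 tested monocytic and granulocytic markers, all lower (MPO, ITGB2 and CD68), and 1 of the 4 tested B cell markers, also lower (CD79A). The median log2 of the 13 was -0.21, with 4 higher and 9 lower. SPI1, CD33 and ITGAM stood at 0.21, 0.15 and 0.13. Without overlap 4 of the 13 were lower and 1 higher, against 11.1% of all tested genes in either direction. The higher one was FCGR1A, at 0.808, 0 and 0.368 CPM in MT_mock and 2.51 and 1.71 CPM in B412_mock. Its counts were 12, 0 and 5 in MT_mock and 32 and 23 in B412_mock. Among those lower were 2 that were not called, ELANE and CEBPE. ELANE stood at 305, 88.1 and 111 CPM in MT_mock and at 18.7 and 39.8 CPM in B412_mock. CEBPE stood at 28.9, 17.1 and 10.3 CPM in MT_mock and at 9.42 and 5.94 CPM in B412_mock. The part of these markers in the receptor differences was not tested.

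**Figure D4:**
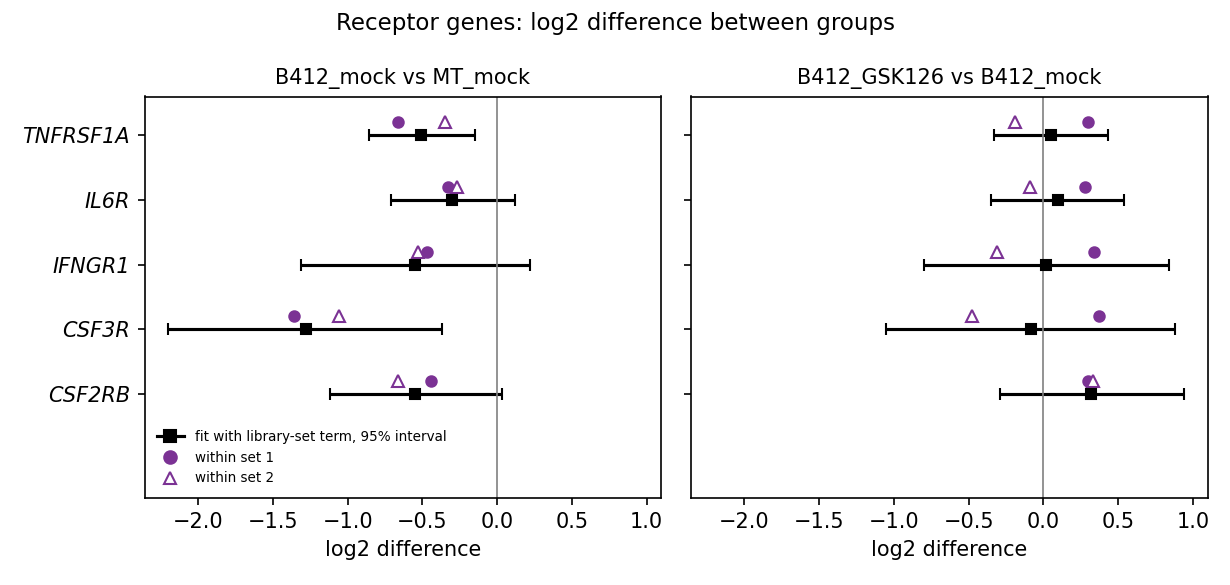
Log2 difference of each tested receptor for B412_mock against MT_mock (left) and B412_GSK126 against B412_mock (right), from the fit with the library-set term (black squares, 95% interval) and within set 1 (circles) and set 2 (triangles). In the B412_mock against MT_mock comparison the intervals of CSF3R and TNFRSF1A lie below 0, and in the GSK126 comparison all 5 include 0.

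GSK126 was compared with mock treatment within B412 to see whether EZH2 inhibition goes with other receptor levels in the line made to express the fusion. No receptor was called, and with the set term the intervals of all 5 included 0. CSF2RB was at 5.42 CPM without and 6.82 CPM with GSK126 in set 1, and at 17.7 and 22.4 CPM in set 2. Among the 5 tested receptors it alone (20%) was higher with GSK126 in both sets, against 28.4% of all tested genes. Each set held 1 library a group here. The CSF2RB log2 was 0.33 (SE 0.879) by group means. With the set term it was 0.32 (SE 0.282, interval -0.29 to 0.94, edgeR adjusted p = 1). CSF3R was at 12.9 and 59.6 CPM in B412_mock and at 16.9 and 43 CPM in B412_GSK126, so that the set 1 libraries moved up and the set 2 libraries down. Its log2 difference was -0.26 (SE 0.935) by group means. With the set term it was -0.08 with an interval of -1.05 to 0.88 (SE 0.425, edgeR adjusted p = 1).

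TNFRSF1A, at 135 and 165 CPM with GSK126 against 108 and 187 CPM without it, gave a log2 of 0.05 (SE 0.174, interval -0.33 to 0.43). IL6R, at 61 and 77.2 CPM against 49.3 and 81.8 CPM, gave 0.10 (SE 0.205, interval -0.35 to 0.54). IFNGR1, at 44 and 86.3 CPM against 34.1 and 107 CPM, gave 0.02 (SE 0.365, interval -0.80 to 0.84). These values are with the set term. By group means TNFRSF1A was at 0.03 (SE 0.36), IL6R at 0.07 (SE 0.387) and IFNGR1 at -0.1 (SE 0.777). In these 3 receptors, too, the GSK126 library was above the mock library in set 1 and below it in set 2. All 5 receptors were thus higher in set 1 and 4 of 5 lower in set 2, where 51.4% of all tested genes were higher and 51.7% lower. The edgeR test called 0 of 5 receptors in both fits, and 0% of all tested genes. Before adjustment 0 receptors had a p under 0.05, against 0.237% of all genes by group means and 3.43% with the set term. DESeq2 called 0 receptors without the set term (0% of the tested genes) and 0 with it (0.0296%). In 0 of 5 did the groups not overlap, against 12.5% of the tested genes.

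B412_GSK126 against MT_mock shares its libraries with both comparisons above and adds no independent evidence. CSF3R was at a log2 of -1.37 with the set term (SE 0.399, interval -2.27 to -0.46, edgeR adjusted p = 0.151). TNFRSF1A was at -0.45 (SE 0.161, interval -0.81 to -0.10, edgeR adjusted p = 0.203). IFNGR1, CSF2RB and IL6R were at -0.53, -0.22 and -0.20 (edgeR adjusted p = 0.505, 0.737 and 0.667). All these values are with the set term. By group means CSF3R was at -1.19 (SE 0.886) and TNFRSF1A at -0.41 (SE 0.332). IFNGR1 was at -0.44 (SE 0.718), CSF2RB at -0.01 (SE 0.801) and IL6R at -0.15 (SE 0.355) by group means. The edgeR test called 0 of 5, where 0% of the tested genes were called by group means and 1.9% with the set term, and 2 receptors (CSF3R and TNFRSF1A) had an unadjusted p under 0.05 with the set term (15% of all tested genes) and 0 without it (1.98%). DESeq2 called 0 by group means, where 0.481% of the tested genes were called, and CSF3R alone with the set term (log2 -1.37, adjusted p = 0.00496), where 4.47% were. In 0 of 5 did the groups not overlap, against 12.1% of the tested genes. With the set term, edgeR called CSF3R without the filter (log2 -1.37, adjusted p = 3.22e-07), where 892 of 18734 genes were called. It also called CSF3R without MT_mock replicate 2 (log2 -1.66, adjusted p = 0.0364), where 97 of 13354 genes were called. Without MT_mock replicate 1 it called IFNGR1 (log2 -0.81, adjusted p = 0.0368), where 693 of 13351 were.

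The library sets parted some receptors more than the groups did. In each of the 3 groups the library of set 2 had the highest level of all 5 tested receptors. The fitted difference of set 2 from set 1 was a log2 of 1.59 for CSF2RB, 1.54 for CSF3R and 1.2 for IFNGR1, and 0.37 for IL6R and 0.31 for TNFRSF1A. These values are descriptions, since the sets were taken from the same libraries. The 5 genes with the pattern most like that of TNFRSF1A over the 7 libraries, by Pearson r of log2 CPM, were XKR8 (r = 0.975), a phospholipid scramblase, SDS (0.973), which encodes serine dehydratase, SRGN (0.968), the granule proteoglycan serglycin, DNTTIP1 (0.965), and TNFAIP2 (0.965), a gene named for its induction by tumour necrosis factor. XKR8 had few reads, with 0 counts in B412_mock replicate 1, 3 in B412_GSK126 replicate 1 and at most 88 in any library. The libraries share the set split, so the r values carry no test.

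Reads of the receptors' ligands were few in these cells. CSF3, IL3 and IFNG had 0 counts in every library. CSF1 had at most 4 counts, and CSF2 and IL6 had 3 counts in B412_GSK126 replicate 1 and 0 elsewhere. IL34 had at most 11 counts and LTA at most 6. Of 11 ligand genes 3 were tested, and edgeR called 0 of them between B412_mock and MT_mock by group means (0% of all tested genes) and with the set term (2.35%). FLT3LG, the ligand of FLT3, was the best measured of them, with 162, 130 and 96 reads in MT_mock, 246 and 142 in B412_mock and 143 and 116 in B412_GSK126. Its B412_mock to MT_mock difference was a log2 of 0.77 (SE 0.281, edgeR adjusted p = 0.218 with the set term), and that of TNF was 0.51 (SE 1.22, adjusted p = 0.900). For TNF the direction turned with the fit, since it was at -0.69 by group means. KITLG, the gene of stem cell factor, which binds KIT, was singled out after its values were seen. It gave 3, 11 and 9 reads in MT_mock, 2 and 15 in B412_mock and 13 and 51 in B412_GSK126. Both GSK126 libraries lay above the mock library of their own set, while the groups overlapped across sets, and the log2 difference with the set term was 1.94 (SE 0.997, edgeR adjusted p = 1).

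Of 77 listed genes around the receptors, 66 were tested, and B412_mock differed from MT_mock in 0 of them by group means and in 3 with the set term (4.55%, against 2.35% of all tested genes), by edgeR. At an unadjusted p under 0.05 there were 4 by group means (2.54% of all tested genes) and 14 with the set term (14.6% of all tested genes). The median log2 of the 66 was -0.11 with the set term, against -0.01 over all genes. DUSP6, a phosphatase that removes the activating phosphates of ERK, stood at 45.6, 57.8 and 38.6 CPM in MT_mock, 17.7 and 18.6 CPM in B412_mock and 26 and 21.8 CPM in B412_GSK126. It fell in B412_mock, with no overlap, by 1.35 in log2 units (SE 0.222; with the set term, edgeR adjusted p = 0.00949). SPRED1, which restrains RAS signalling below KIT and other receptor kinases, stood at 0.337, 0.277 and 0.958 CPM in MT_mock, 3.69 and 5.94 CPM in B412_mock and 3.3 and 8.16 CPM in B412_GSK126. It rose 8.54-fold (log2 3.09, SE 0.525, edgeR adjusted p = 0.0111 with the set term) and did not overlap either, from only 5, 4 and 13 counts in MT_mock. FES, a cytoplasmic tyrosine kinase of myeloid cells that acts downstream of cytokine receptors, stood at 127, 89.9 and 95.7 CPM in MT_mock, 203 and 154 CPM in B412_mock and 163 and 128 CPM in B412_GSK126. It rose 1.74-fold (log2 0.80, SE 0.172, edgeR adjusted p = 0.0349 with the set term), again without overlap. The 2 groups did not overlap in 11.1% of all tested genes. DUSP6, SPRED1 and FES were named because they were called in these data, so their lack of overlap adds no separate support. These 3 calls rest on few libraries. Without B412_mock replicate 1 or replicate 2 none was called by edgeR with the set term (adjusted p = 0.443 and 0.0834 for DUSP6, 0.341 and 0.0706 for SPRED1, 0.829 and 0.23 for FES), and FES was not called without MT_mock replicate 2 (0.103).

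**Figure D5:**
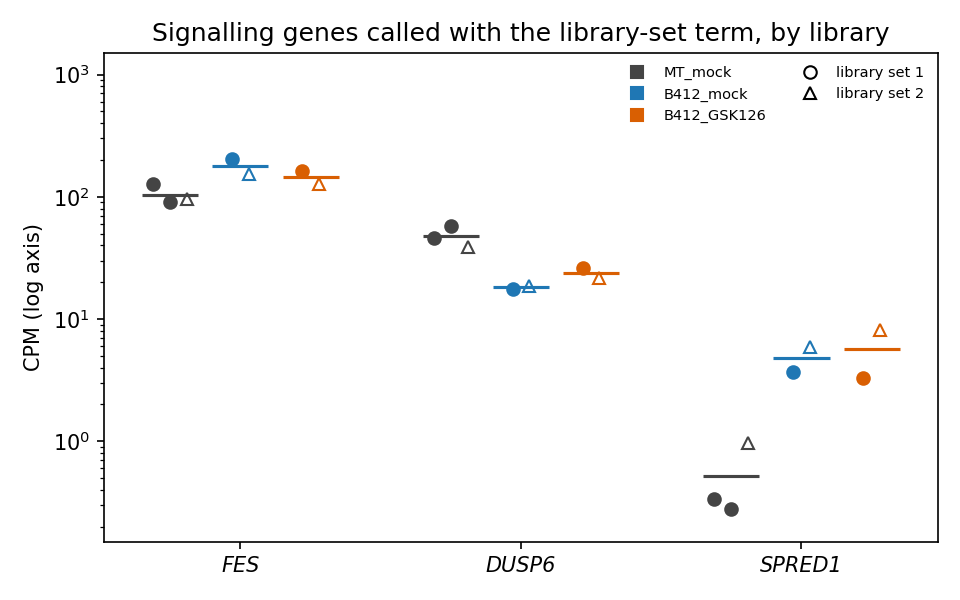
Level in CPM of FES, DUSP6 and SPRED1 in each of the 7 libraries on a log axis, coloured by group, with circles for library set 1, triangles for set 2 and bars for group means. MT_mock and B412_mock do not overlap for any of the 3, with DUSP6 at 38.6 to 57.8 against 17.7 and 18.6. The same holds for 11.1% of all tested genes, and the 3 are shown because they were called in these data.

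The remaining lists gave no call between B412_mock and MT_mock by edgeR, by group means (0% of all tested genes) or with the set term (2.35%). Of the genes named here, ID1 was called under 2 of 10 other settings and in 1 fit with a library left out. TNFRSF1B and IL4R were called in 1 such leave-one-out fit each. Among 13 tested partner and related receptor chains the lowest p-values belonged to TNFRSF1B, the second receptor for tumour necrosis factor (log2 -0.49, SE 0.199, edgeR adjusted p = 0.275 with the set term), and IL4R (-0.63, SE 0.294, adjusted p = 0.352). Of 10 tested JAK kinases and STAT factors 0 were called, and STAT6, which carries the signal of interleukin 4, stood at a log2 of 0.35 (SE 0.159, edgeR adjusted p = 0.342). Among 11 listed targets of STAT5 and STAT3 the lowest p-values belonged to ID1, an inhibitor of basic helix-loop-helix factors (log2 -3.25, SE 0.927, edgeR adjusted p = 0.106), and BCL2L1, which protects from apoptosis (-0.59, SE 0.172, adjusted p = 0.116). With the set term the adaptor list held 1 call of 15 (FES) and the inhibitor list 2 of 14 (DUSP6 and SPRED1), against 2.35% of all tested genes. With GSK126 against mock treatment, edgeR called 0 of the 66 in both fits, and 0% of all tested genes. At an unadjusted p under 0.05 there were 0 by group means (0.237% of all tested genes) and 1 with the set term (3.43%). The log2 values with the set term were 0.37 for DUSP6, 0.12 for SPRED1 and -0.31 for FES.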

How the data were processed

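The deposited values are raw counts per gene symbol, 1 column per replicate. Per the submitters' processing notes, FastQC, Subread and featureCounts were used with build hg19. For their versions, the annotation, and how strand and multi-mapping reads were handled, no source used here gives an answer. Libraries were made from total RNA with SMART-Seq cDNA, per the labels' protocols.

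The receptor set, the gene lists and the named-gene rule were chosen with earlier results of these data known. Genes were filtered with filterByExpr (minimum count 10, minimum total 15), scaled by TMM and tested in R 4.3.3 with the quasi-likelihood F test of edgeR 4.0.16 over all 7 libraries (two-sided, Benjamini-Hochberg over 13521 genes, threshold 0.05). DESeq2 1.42.0, RLE scaling, no filter, a replicate block, the 2 groups alone and each library left out were alternatives. A second fit added the library set, from principal components of log2 CPM (prior count 2). It leaves 3 residual degrees of freedom and lowers the biological coefficient of variation from 58.3% to 21.9%. Named list genes were those called in either of the first comparisons, or otherwise the 2 with the lowest p, of which 1 gene is not reported here. Genes of like pattern were the 5 with the highest r to the receptor of lowest p. CPM values use library totals. Levels per kb and promoter windows come from GENCODE 29 and RefSeq tables on GRCh38, matched by symbol. The scripts were tested on simulated data. No exon of another counted gene overlapped those of the receptors in GENCODE 29.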

Additional observations from a re-analysis of the deposited data

How the results depend on the processing

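With 2 or 3 libraries a group, a set split that the labels do not give and 3 or 4 residual degrees of freedom, receptor differences had wide intervals, and 5 of the 10 receptors had too few reads to test. Most calls need the set term. Between B412_mock and MT_mock, edgeR called 0 of all genes by group means, 5 without the filter, 318 with the set term, 326 with RLE scaling and the term, 363 from the 2 groups alone with the term and 881 without the filter with the term. DESeq2 called 95, and 684 with the term.

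The number of receptors called against MT_mock was 1 for B412_mock and 1 for B412_GSK126 with the set term when the filter was dropped or DESeq2 was used, in each case CSF3R, and 0 to 1 when a library was left out. Of the 66 signalling genes, B412_mock against MT_mock gave 3 calls with the set term, 3 with RLE scaling and the term, 3 from the 2 groups alone with the term, 10 without the filter with the term, 2 with DESeq2, 5 with DESeq2 and the term, and 0 to 9 when a library was left out. Replicate numbers were shared between groups, and no label says that a number marks a pair. The deviations of MT_mock and B412_mock went together for replicates 1 (r = 0.664) and apart for replicates 2 (-0.634), so the numbers were not taken as pairs. Between B412_mock and B412_GSK126 r was 0.847 for replicates 1, where the number and the library set coincide. With the replicate number as a block 0 receptors and 0 signalling genes were called. The block turned the sign of B412_mock against MT_mock for CSF2RB (0.25) and IFNGR1 (0.24), of B412_GSK126 against MT_mock for CSF2RB (0.57), IL6R (0.00) and IFNGR1 (0.27), and of B412_GSK126 against B412_mock for IFNGR1 (0.02). For the last, the sign also turned with the set term (0.02), with RLE scaling (0.00), no filter (0.03) or DESeq2 (0.01) beside it. TNF in B412_mock turned with the set term (0.51), and with RLE scaling (0.52), no filter (0.62) or DESeq2 (0.87) beside it. The cause was not tested.

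Leaving out 1 library at a time, with and without the set term, gave log2 ranges that crossed 0. For B412_mock against MT_mock they were -1.28 to 0.48 (CSF2RB), -0.52 to 0.01 (IL6R), -1.23 to 0.27 (IFNGR1), -1.24 to 2.82 (TNF) and -0.60 to 1.69 (IL17RE). For B412_GSK126 against B412_mock they were -0.63 to 1.27 (CSF2RB), -0.96 to 1.07 (CSF3R), -0.16 to 0.37 (IL6R), -0.65 to 0.80 (IFNGR1), -0.24 to 0.36 (TNFRSF1A), -0.60 to 0.02 (FES) and -0.45 to 0.67 (SPRED1). For B412_GSK126 against MT_mock they were -0.97 to 0.81 (CSF2RB), -0.39 to 0.01 (IL6R) and -0.88 to 0.16 (IFNGR1).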

Other observations

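A wider look at genes with cytokine receptor symbols, picked after the values were seen, took in 65 further genes, of which 30 were tested. They were mainly receptors of interleukins and of the tumour necrosis factor family, with TGFBR1, TGFBR2, TGFBR3, LEPR, CRLF3 and the receptor antagonist IL1RN among them. Between B412_mock and MT_mock, edgeR called 0 of them by group means (0% of all tested genes) and 2 with the set term (2.35% of all tested genes). IL20RB, the beta chain of the receptors for interleukins 19, 20 and 24, stood at 40.7, 52.2 and 55.9 CPM in MT_mock, 4.16 and 1.86 CPM in B412_mock and 3.01 and 2.89 CPM in B412_GSK126. All 4 B412 libraries lay far below the 3 parental ones in both library sets. IL20RB was 16.7-fold lower in B412_mock (log2 -4.06, SE 0.365, edgeR adjusted p = 0.000218 with the set term, 0.346 without it), and DESeq2 called it with and without the term (adjusted p = 1.39e-25 and 1.25e-10). Its log2 difference stayed between -4.9 and -3.51 whichever library was left out.

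IL17RE, a receptor chain for interleukin 17C, stood at 26.3, 18.3 and 2.95 CPM in MT_mock, 50.2 and 11.8 CPM in B412_mock and 36.7 and 12.9 CPM in B412_GSK126. It was 2.6-fold higher in B412_mock with the set term (log2 1.38, SE 0.296, edgeR adjusted p = 0.0348), and at a log2 of 0.96 by group means (adjusted p = 1), where the groups overlap. With the set term it was not called by edgeR without MT_mock replicate 2 (adjusted p = 0.133), MT_mock replicate 3 (0.0815), B412_mock replicate 1 (0.617) or B412_mock replicate 2 (0.215). With GSK126 against mock treatment 0 of these 30 genes were called by edgeR in either fit, as were 0% of all tested genes.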
